A study of Mus musculus with 4 samples.

Results

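The genes described are 10 junction genes of keratinocytes, of 12393 genes with a symbol of their own on the arrays: the classical cadherins Cdh1 and Cdh3, the catenins Ctnnb1, Ctnna1 and Ctnnd1, and the tight junction genes Cldn1, Cldn4, Cldn7, Ocln and Tjp1. They were chosen by name through the platform's gene symbols, and 17 probe sets carried one of these symbols. A probe set is a group of short probes for a gene's transcripts, read as a single signal. Each gene is represented by its brightest probe set over the 4 arrays, and the others are given beside it.

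RNA was measured on Affymetrix arrays in cells sorted from mouse back skin at postnatal day 49, in telogen, the resting phase of the hair cycle. The bulge group, 2 arrays, held living GFP-positive cells with high surface α6 integrin and CD34, which marks basal cells in the bulge of the follicle. The total epidermis group, 2 arrays, held all living GFP-positive cells, bulge cells included, so the comparison sets bulge basal cells against a mixture that contains them. All mice in both groups carried K14-GFP-actin, in which the keratin 14 promoter, active in basal keratinocytes, drives a fusion of GFP and actin. The GFP gate is meant to select keratinocytes. The cell type label read basal bulge stem cells for all 4 samples, and the groups were taken from the titles. The sources used here do not say whether replicates are from different mice, and p-values cover the spread between these arrays alone, which may be technical.

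Adherens junctions hold neighbouring epithelial cells together through cadherins, whose outer parts pair across the gap between cells. Inside the cell, β-catenin and p120-catenin bind the cadherin tail, and α-catenin joins the complex to actin. Tight junctions seal the space between cells with claudins and occludin, which the ZO-1 scaffold ties to the cytoskeleton. In interfollicular epidermis adherens junctions occur in all living layers, whereas functional tight junctions lie in the granular layer.

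The repressors of the Snail and ZEB families bind the letters CAGGTG in target promoters, and Snail is known to repress claudin and occludin genes in mouse epithelial cells as well as Cdh1. The letters CAGGTG and their reverse complement CACCTG were searched in RefSeq promoter windows of GRCm38.p6, which span 250 bases before to 50 bases after a transcription start. Windows were read for 7 of the genes, 11 windows in all, and 4 windows of 3 genes held the letters: Cldn4, Cldn7 and Ocln. Cdh1 and Cdh3 had no matching window in the source used, and Ctnna1 was left out of the search. Of all 32851 windows of this length, 20.2% held them. The 250 bases before the start are shown for the claudin genes Cldn1 and Cldn4, which differ in these letters. For each, both bulge arrays lay below both total arrays, as for 20.5% of all genes. Neither gene passed the test between the groups given below, and the Cldn4 signals were close to background. Capitals mark the searched letters. The Cldn1 stretch is chr16:26371840-26372089 and the Cldn4 stretch chr5:134946935-134947184, both on the minus strand and given 5′ to 3′.
Cldn1: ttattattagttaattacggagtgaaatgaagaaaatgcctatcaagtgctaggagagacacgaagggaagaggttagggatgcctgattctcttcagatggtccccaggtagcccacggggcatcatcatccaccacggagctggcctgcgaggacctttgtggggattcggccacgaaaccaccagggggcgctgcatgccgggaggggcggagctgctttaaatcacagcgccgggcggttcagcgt
Cldn4: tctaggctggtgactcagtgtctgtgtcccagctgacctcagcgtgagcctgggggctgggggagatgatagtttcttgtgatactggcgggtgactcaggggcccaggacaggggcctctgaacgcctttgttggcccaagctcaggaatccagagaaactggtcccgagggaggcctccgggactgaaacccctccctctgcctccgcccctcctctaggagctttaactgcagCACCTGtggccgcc

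In Cldn4 the match CACCTG began 14 bases before the start, and a further match began at base 12 after it. Ocln is shown by its sites alone, as the other member above background on the total arrays whose windows held the letters. Its windows on the minus strand held a site at base 8 after the upstream start (chr13:100552694-100552723), which is also in the window of the downstream start, and another 68 bases before the downstream start (chr13:100552549-100552578).
Ocln, first site: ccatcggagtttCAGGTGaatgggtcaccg
Ocln, second site: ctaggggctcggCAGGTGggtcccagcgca
These matches describe letters in a window and were not measured as binding.

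No junction gene passed the test between the groups. In limma, at a Benjamini-Hochberg adjusted p under 0.05 over all 12393 genes, 0 of the 10 genes were called, where 0% of all genes were called. At an unadjusted p under 0.05, 1 of the 10 passed (Ocln), against 10.5% of all genes. The same fit with an intensity trend in the variance, which called 1.08% of all genes, called 0 of the 10. The fit on the 6755 genes with a mean above background called 2.10% of them and 0 of the members it held. Ocln and Cldn7 were not among those 6755 genes, so they were not tested there. Differences below are bulge minus total on the log2 scale, with n = 2 arrays per group. Their median over the 10 genes was -0.60, beside -0.02 over all genes tested, with 7 differences negative and 3 positive. Without bulge replicate 2 the median was -0.13, and without bulge replicate 1 it was -0.95. Both bulge arrays lay below both total arrays for 5 of the 10 genes (Ctnnd1, Cldn1, Cldn4, Ocln and Tjp1) and above them for 0, where the groups did not overlap for 38.5% of all genes, 20.5% lower and 18.0% higher. Members were chosen with results of these data known, so these counts are a description of the 10 genes.

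**Figure D1:**
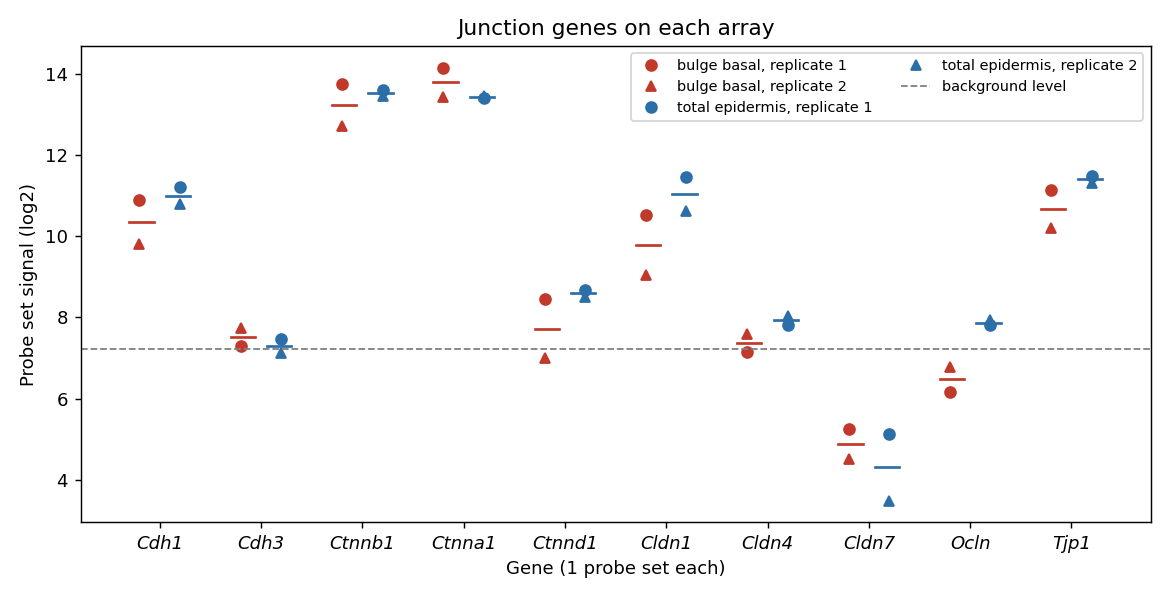
Log2 signal of the 10 junction genes on each array, bulge arrays in red on the left of each pair and total epidermis arrays in blue on the right, with circles for replicate 1, triangles for replicate 2 and bars for group means. The dashed line is the background level of 7.23, and bulge replicate 2 is the lowest array for 5 of the genes.

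A background level was set at a log2 signal of 7.23 (signal 149.99), below which 95% of the signals of 67 smell and taste receptor genes fell. Of the 10 genes, 5 lay above it on all 4 arrays (Cdh1, Ctnnb1, Ctnna1, Cldn1 and Tjp1), and Cldn7 lay below it on all 4. Bulge replicate 2 was below bulge replicate 1 for 7 genes, and total replicate 2 below total replicate 1 for 7. The SD between the bulge arrays was larger than that between the total arrays for 9 of the 10. The bulge replicates differed more over the series too. For genes with a mean above background, the SD of the difference between replicates was 0.90 in the bulge group and 0.53 in the total group. Shares of all genes for these replicate counts were not computed.

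Cdh1 encodes E-cadherin, the main classical cadherin of all living epidermal layers. Its signal was 1885 and 898 on the bulge arrays, against 2357 and 1765 on the total epidermis arrays. Bulge replicate 1 lay between the total arrays and bulge replicate 2 was the lowest of the 4, so the groups overlapped. The mean log2 signal was 10.35 ± 0.76 in the bulge group and 10.99 ± 0.30 in the total group (SD, n = 2 each). The difference was -0.65 (95% interval -1.94 to 0.64) and did not pass (adjusted p of 0.813 in limma). Without bulge replicate 2 it was -0.11, and without bulge replicate 1 it was -1.18.

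Cdh3 encodes P-cadherin, a classical cadherin of basal keratinocytes and hair follicles. Its signal was 158 and 214 on the bulge arrays, against 177 and 141 on the total arrays. All of these were close to the background level, and 1 of the 2 total arrays was under it. The groups overlapped, with a difference of 0.22 (95% interval -0.80 to 1.24). In RefSeq the Cdh3 and Cdh1 genes are neighbours on chromosome 8, with 0 protein-coding genes between them. Each of their intervals held 0, and the Cdh3 difference was 0.0052 without bulge replicate 2 and 0.44 without bulge replicate 1.

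The genes whose pattern over the 4 arrays was nearest to that of Cdh1, by Euclidean distance of gene-centred log2 values among 5779 genes above background on all arrays, were Coq7 at 0.05 and the TGF-β receptor gene Tgfbr2 at 0.07. For Cdh3 they were Ppp2r3c at 0.04 and Clasrp at 0.08. For Cldn1 they were Etfdh at 0.12 and Gpam at 0.15. With 4 arrays many genes have close patterns.

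None of the 3 catenin genes passed the limma test, and their fitted differences had both signs. Ctnnb1, which encodes β-catenin, had signals of 13699 and 6767 on the bulge arrays, against 12343 and 11265 on the total arrays. Bulge replicate 1 was the highest and bulge replicate 2 the lowest of the 4. The difference was -0.29 (95% interval -1.52 to 0.93). Its other probe sets were at or near background and gave 1.73 and -1.15, so they do not settle the sign. Without bulge replicate 2 the difference was 0.22, and without bulge replicate 1 it was -0.80.

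Ctnna1, which encodes αE-catenin, had signals of 18194 and 11039.6 on the bulge arrays, against 10833 and 11298.5 on the total arrays. It was high on bulge replicate 1, and the other 3 arrays lay close together. The difference was 0.36 (95% interval -0.73 to 1.44). A further bright probe set gave 0.04, and the remaining one, below background on all 4 arrays, gave -2.15. Without bulge replicate 1 the difference was -0.0031, and without bulge replicate 2 it was 0.72.

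Ctnnd1, which encodes p120-catenin, a protein that keeps cadherins at the cell surface, had signals of 349.9 and 127 on the bulge arrays, against 408 and 364.5 on the total arrays. Both bulge arrays were lower, and replicate 2 was under the background level. The difference was -0.87 (95% interval -2.35 to 0.61; adjusted p of 0.756 in limma), and it was -0.14 without bulge replicate 2 and -1.60 without bulge replicate 1.

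**Figure D2:**
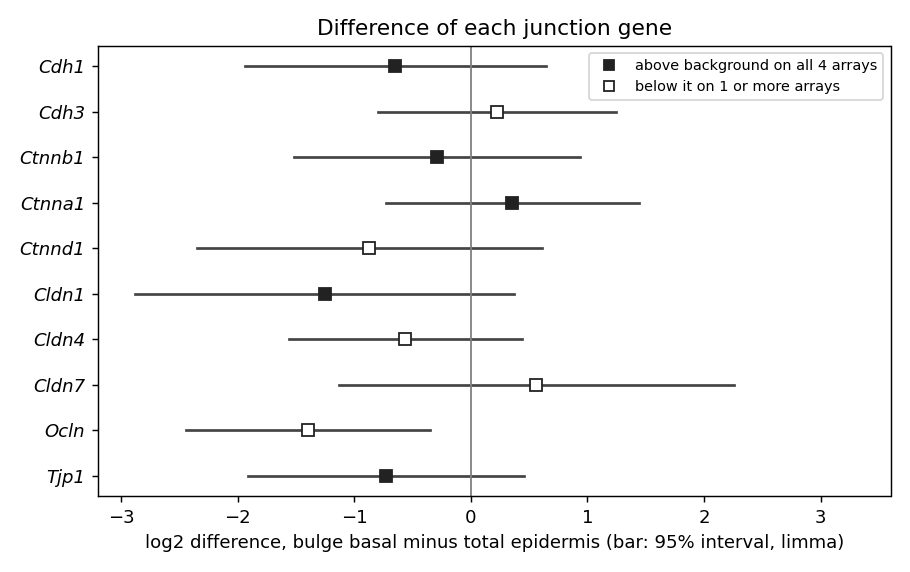
Log2 difference of each junction gene, bulge basal minus total epidermis, with its 95% interval from limma, filled squares for genes above background on all 4 arrays and open squares for the rest. The interval of Ocln, from -2.44 to -0.35, is the only one that leaves out 0, and its adjusted p of 0.303 did not pass.

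Of the 5 tight junction genes, 0 passed the limma test. Both bulge arrays were the lower ones for 4 of the 5, where 20.5% of all genes were lower in this way. Cldn1 encodes claudin-1, without which mouse skin loses water through the epidermis. Its signal was 1469 and 525 on the bulge arrays, against 2798 and 1563 on the total arrays. The lower total array was just above the higher bulge array. The mean log2 signal was 9.78 ± 1.05 in the bulge group and 11.03 ± 0.59 in the total group (SD, n = 2 each). The difference of -1.25 (95% interval -2.88 to 0.37; adjusted p of 0.631 in limma) corresponds to a 2.38-fold lower signal in the bulge group and did not pass. Its other 3 probe sets were below background on all 4 arrays and gave 0.94, -0.15 and -0.34. Without bulge replicate 2 the Cldn1 difference was -0.51, and without bulge replicate 1 it was -1.995.

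Ocln encodes occludin, a membrane protein of the tight junction strand. Its signal was 72.3 and 110.0 on the bulge arrays, against 224 and 245 on the total arrays. Both bulge arrays were under the background level and both total arrays above it, so the bulge level is only a bound. The mean of the total arrays was 1.56-fold above the background level, a value that leaves out the spread between arrays. The fitted difference was -1.39 ± 0.41 (SE; 95% interval -2.44 to -0.35), with an unadjusted p of 0.0182 and an adjusted p of 0.303 in limma.

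Tjp1 encodes ZO-1, the scaffold under claudins and occludin, which also binds α-catenin. Its signal was 2256 and 1187 on the bulge arrays, against 2881 and 2555 on the total arrays. Both bulge arrays were lower, with the gap between them wider than the gap between the groups. The difference was -0.73 (95% interval -1.91 to 0.45), and it was -0.27 without bulge replicate 2 and -1.19 without bulge replicate 1.

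Cldn4 and Cldn7 encode claudins of many simple epithelia, and claudin-4 also lies in the granular layer. Cldn4 had signals of 142.5 and 192 on the bulge arrays, against 225 and 264 on the total arrays. All 4 values were close to background, with a difference of -0.56 (95% interval -1.56 to 0.44). Cldn7 had signals of 38.0 and 22.7 on the bulge arrays, against 35.3 and 11.3 on the total arrays, all below background, and no fold is given.

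The other genes of these junctions and of their regulation were taken from 7 lists with 120 entries, of which 107 were measured. In the limma fit 0 of the 107 were called, and in the trended fit 1 was called higher and 0 lower, where 0.557% of all genes were called higher and 0.524% lower. Groups did not overlap for 27 genes higher and 26 lower of the 107, beside 18.0% higher and 20.5% lower among all genes, the shares against which such counts of the lists below are to be read.

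Of 9 other cadherins, 2 were above background on both arrays of a group, and their differences had opposite signs. Cdh13 encodes T-cadherin, which is anchored to the membrane by lipid and lacks the catenin-binding tail. Its signal was 893 and 1612 on the bulge arrays, against 494 and 760.1 on the total arrays, a difference of 0.97 (adjusted p of 0.623). Cdh4, which encodes R-cadherin, was below background on both bulge arrays, with signals of 155 and 173 on the total arrays. The mean of its total arrays was 1.09-fold above the background level.

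Other catenin and adherens junction plaque genes had a median difference of 0.03 over 24, with 9 of the 24 higher and 5 lower without overlap, beside 18.0% and 20.5% of all genes. Actn1, which encodes the actin cross-linker α-actinin-1, had signals of 14319 and 8312 on the bulge arrays, against 3509 and 3786 on the total arrays, a difference of 1.58. Pkp4, an armadillo family gene related to p120-catenin, had 3843 and 1211 on the bulge arrays, against 9211 and 8212 on the total arrays, a difference of -2.01, and its other probe set gave -1.89. Nectin4, which encodes an adhesion receptor of the nectin family, had 237 and 410.4 on the bulge arrays, against 1016 and 907 on the total arrays. The adjusted p in limma was 0.269 for Actn1, 0.333 for Pkp4 and 0.258 for Nectin4.

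Other tight junction genes had a median of 0.05 over 27, with 8 of the 27 higher and 6 lower without overlap, beside the same 18.0% and 20.5%. Marveld2 encodes tricellulin, which seals the corners where 3 cells meet and belongs to the same protein family as occludin. Its signal was 167 and 159 on the bulge arrays, against 804 and 578 on the total arrays. The groups did not overlap. The difference was -2.06 ± 0.39 (SE), and the adjusted p was 0.136 in limma and 0.0698 with the trend. Cgnl1, which encodes paracingulin, a plaque protein of both junction types, had a difference of opposite sign. It had signals of 1596 and 506 on the bulge arrays, against 213 and 231 on the total arrays, a difference of 2.02 (adjusted p of 0.331). Pard6b, a polarity gene, was below background on both bulge arrays, and the mean of its total arrays was 1.91-fold above the background level. Of 15 other claudins, 11 were below background on all 4 arrays.

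**Figure D3:**
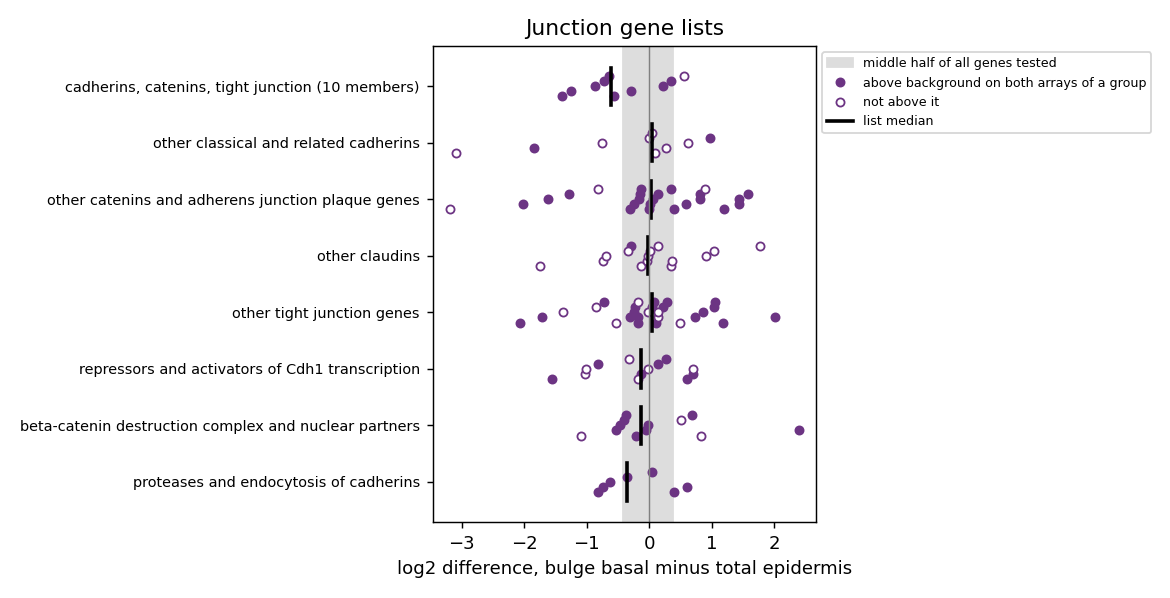
Log2 differences, bulge basal minus total epidermis, of the 10 junction genes and of 7 lists of related genes, with filled points for genes above background on both arrays of a group and a black bar at each list's median. The 10 genes have a median of -0.60 and the other lists have medians from -0.36 to 0.05, beside the grey band that spans the quartiles of all genes, -0.41 and 0.38.

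Of 13 transcription factors that repress or activate Cdh1, 0 were called in either fit, with a median of -0.13. Grhl1, a grainyhead-like activator of epidermal genes, had signals of 465 and 253 on the bulge arrays, against 1263 and 808 on the total arrays, a difference of -1.56 (adjusted p of 0.340 in limma). Ovol1 was below background on both bulge arrays, and Tcf3, an E-box binding factor, had a difference of 0.71. Snai2, a Snail family repressor named for the letters CAGGTG and outside the rule for named genes, had overlapping groups and a difference of 0.60 (95% interval -0.78 to 1.99).

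The only gene called in these lists was Tcf7l1, which encodes a partner of β-catenin in the nucleus that acts mainly as a repressor and is known from bulge cells. Its signal was 871 and 934 on the bulge arrays, against 151 and 195 on the total arrays. It rose 5.25-fold in the trended limma fit (2.39 ± 0.34 on the log2 scale, SE; adjusted p = 0.0442), and its other probe set gave 2.46. In the limma fit without the trend its adjusted p was 0.108. Of the other 11 genes of the β-catenin degradation complex and its nuclear partners, none was called. The kinase genes Gsk3a and Csnk1a1 had differences of -0.41 and -0.36. Of 7 genes for shedding and traffic of cadherins, none was called. Adam10, whose protease sheds E-cadherin, had signals of 1032 and 1049 on the bulge arrays, against 2096 and 1623 on the total arrays, a difference of -0.83. Rab11a and Arf6, genes of recycling and endocytosis, had -0.73 and -0.63. The other bright probe set of Rab11a gave -0.32 with overlapping groups, and that of Arf6 gave -0.49.

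The labels were checked against marker genes of the sort and of other cell types. Cd34 was 15.1-fold higher on the bulge arrays, which were sorted on its protein. It passed in the trended limma fit (adjusted p = 0.0297) and not in limma without the trend (adjusted p = 0.0729). Itga6 and Krt14 did not pass in either fit. Itga6 had a difference of -0.91, and its other probe set gave -1.29. Krt14 had a difference of -0.30, and its other probe sets, also above background on all 4 arrays, gave -0.65 and -2.42. Counts of markers without overlap are beside 38.5% of all genes, 18.0% higher and 20.5% lower. All 7 bulge stem cell markers were higher without overlap, and their summed signal was 54712 to 63503 on the bulge arrays, against 21224 to 26556 on the total arrays. Basal keratinocyte markers, 6 genes, summed to 67012 to 69044 on the bulge arrays, within the 58983 to 75610 of the total arrays (0 of 6 called).

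Langerhans cells and T cells of the epidermis meet E-cadherin on keratinocytes, and Langerhans cells make it themselves. Of 11 Langerhans cell and macrophage markers, 9 were lower without overlap and 4 fell in the trended fit, with sums of 1298 to 1681 in the bulge group and 11658 to 13117 in the total group. Of 8 T cell markers, 7 were lower without overlap and 2 fell, with sums of 331 to 443 in the bulge group and 2015 to 3345 in the total group. Among them, Itgae encodes the αE integrin, which binds E-cadherin. It was below background on both bulge arrays, against signals of 191 and 283 on the total arrays. The mean of its total arrays was 1.55-fold above the background level, and it fell in the trended fit (adjusted p = 0.0335, limma with the trend).

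Infundibulum and isthmus markers, 6 genes, summed to 6465 to 9395 on the bulge arrays, against 36088 to 44799 on the total arrays, with 5 lower without overlap and 1 that fell in the trended fit (Krt79). Suprabasal markers, 6 genes, summed to 22396 and 62459 on the bulge arrays and 40191 and 61280 on the total arrays, and 1 fell in the trended fit (Krt1). Replicate 2 had the higher sum of these in both groups, and in each group it had the lower level of 7 of the 10 junction genes. The 7 genes were not the same in the 2 groups. Ctnna1 was lower in replicate 2 only in the bulge group, and Cdh3 only in the total group. A link between these patterns was not tested. Melanocyte markers had 6 of 7 lower without overlap, while the sum, which includes Mitf with a difference of 2.67, was 3328 to 7077 on the bulge arrays, against 2111 to 2893 on the total arrays. Endothelial and fibroblast markers were below background on all arrays for 5 of 6 and 3 of 6 genes. Among endothelial markers, 1 of 6 was higher and 0 lower without overlap, with sums of 397 to 445 in the bulge group and 335 to 497 in the total group. Among fibroblast markers, 1 of 6 was higher and 3 lower without overlap, with sums of 2016 to 4443 in the bulge group and 1535 to 1935 in the total group. The higher one, Col1a2, had signals of 3852 and 1541 on the bulge arrays, against 343 and 286 on the total arrays (adjusted p of 0.129 in limma). Of the lower ones, Pdgfra and Dcn were below background on all arrays. Thy1, also listed as a T cell marker, had 131 and 294 on the bulge arrays, against 877 and 1444 on the total arrays. Sebaceous gland markers, 4 genes, had 2 higher and 1 lower without overlap, with sums of 5966 to 7167 in the bulge group and 6531 to 7675 in the total group. No marker was at 0 on any array, but all deposited intensities are above 0, so a marker below background is not shown to be present. The part of these cells in the differences of the junction genes was not tested, and fewer cells of a type and less RNA per cell cannot be told apart in sorted bulk samples.

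**Figure D4:**
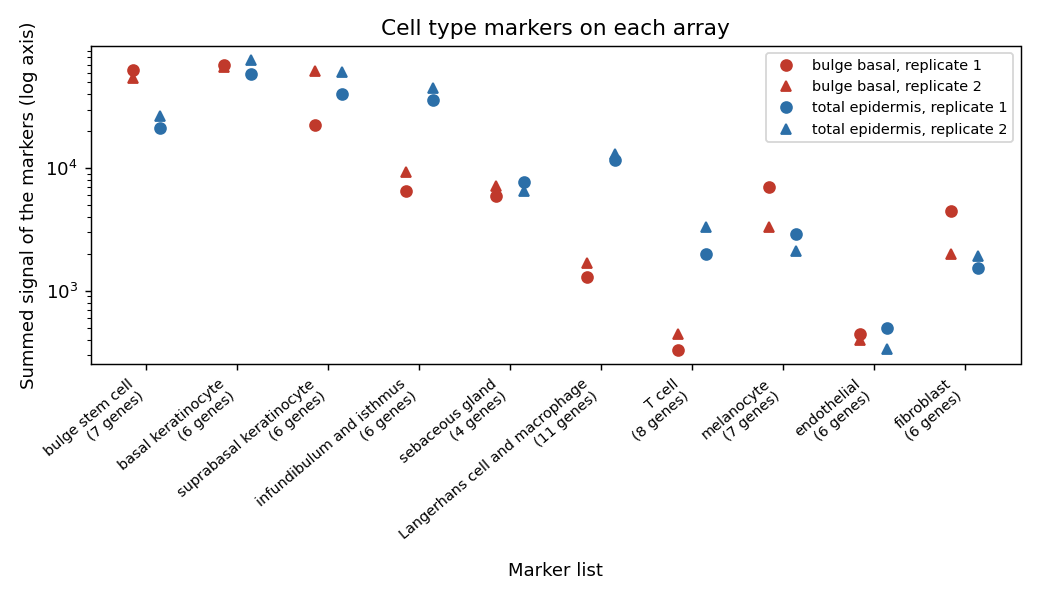
Summed signal of each marker list on each array, on a log axis, with bulge arrays in red on the left and total epidermis arrays in blue on the right, circles for replicate 1 and triangles for replicate 2. Langerhans cell and macrophage markers sum to 1298 to 1681 on the bulge arrays and 11658 to 13117 on the total arrays.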

How the data were processed

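The deposited table holds summarised Affymetrix probe set intensity on a linear scale, with array medians from 124 to 145 and a mean of 500.0 on every array after trimming 2% at each end. RNA (200 ng) was amplified and labelled with biotin, per the labels' protocols. GCOS, RMA, affy 1.36 and R 2.15.1 are listed in the submitters' processing notes, which give them no role. An equal trimmed mean with unequal medians is not a property of RMA output, and the tool that made these values is not given in the sources used here.

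Log2 was taken of the deposited intensity. Probe sets with 1 gene symbol in the platform annotation (20380 of 22690) were used, with symbols updated by Entrez ID for 20351 from RefSeq (GRCm38.p6). Controls (64) and probe sets with several (691) or no symbols (1555) were left out. The probe set with the highest mean represents a gene. Groups were compared with lmFit and eBayes of limma 3.58.1 in R 4.3.3, two-sided. The fits with and without the trend were also run on simulated data as a check of the code. That run is not used here to judge how many real differences the fits can call. An intensity trend, other scalings, filters, probe set rules, a replicate block and leaving out each array were alternatives. The members and lists were chosen with earlier results of these data known. The rule for named genes was all members, sorting genes, Itgae, called list genes and up to 3 per list by size of difference without overlap, and the 2 nearest patterns of 3 members. The number of arrays limits the precision.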

Additional observations from a re-analysis of the deposited data

How the results depend on the processing

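The limma fit called 0 of 12393 genes, and with 2 arrays per group it leaves wide intervals. More genes were called with an intensity trend (134), on genes with a mean above background (142), with 32 added to the signal (37) and with a replicate block and the trend together (917). Leaving out an array gave 0 calls without the trend, and with it 0 without either total array, 350.0 without bulge replicate 2 and 388 without bulge replicate 1, fits added after seeing the data. The junction genes called numbered 0 under these settings, except 1 with the replicate block and the trend: Cldn1, with an adjusted p of 0.0221, where its adjusted p ran from 0.0557 to 1 over the other settings and was 0.234 with the replicate block alone. The replicate numbers are not said to pair the arrays, and same-numbered arrays deviated together at r = 0.607 over genes above background. Of 178 member differences recomputed, 169 kept their sign and their side of the threshold, 8 turned sign and 1 passed it. Settings that changed only the variance model, the block or the genes tested leave a difference unchanged, so its sign could not turn there. The trended fits that leave out an array repeat the untrended differences, so turned signs among them are counted again. With the mean over the probe sets of a gene, Ctnnb1 was 0.10 and Ctnna1 -0.58, since dim probe sets enter the mean. Over the fits that leave out an array, Ctnnb1 ranged from -0.80 to 0.22, Ctnna1 from -0.0031 to 0.72, and Cldn7, below background, from -0.26 to 1.38. The median over the 10 genes ranged from -0.95 to -0.13.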

Other observations

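The log2 ratio of other junction genes to Ctnna1 within each array gives values that do not depend on a scaling factor applied to a whole array. Ctnna1 was chosen as the denominator after its values were seen, the level of a ratio between different probe sets has no meaning of its own, and no test was made. The ratio of Cdh1 to Ctnna1 was -3.27 and -3.62 on the bulge arrays, against -2.20 and -2.68 on the total arrays. The ratio of Ctnnb1 to Ctnna1 was -0.41 and -0.71 on the bulge arrays, against 0.19 and -0.004 on the total arrays. The ratio of Tjp1 to Ctnna1 was -3.01 and -3.22 on the bulge arrays, against -1.91 and -2.14 on the total arrays. Neither bulge array reached the lower total array in any of these ratios. They share a denominator whose own difference was 0.36, which lowers each ratio in the bulge group, so they are not separate results. For other gene pairs, the share without overlap was not computed. For Cdh1 against the second bright Ctnna1 probe set the difference between the groups was -0.69, in place of -1.01.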
